A study of Mus musculus with 21 samples.

Results

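Endothelial GATA4 occupancy was set against the RNA level of endothelial cells from mouse ventricles at embryonic day E12.5. A GATA4 region was a stretch of merged peaks with a peak in at least 2 of the 3 GATA4 libraries made with the Tie2-Cre driver, and 14228 of 29351 merged Tie2-Cre regions met this rule. Merging all 6 GATA4 libraries of both drivers gave 49792 regions. Each region was given to the gene with the nearest transcription start site (TSS) within 50 kb. Of 24117 genes with a placed TSS, 6518 (27.0%) received at least 1 region: 4875 received 1, 1201 received 2 and 442 received 3 or more, while 17599 received 0. A region within 1 kb of the TSS was called a promoter region and any other a distal region.

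In the Tie2-Cre GATA4 libraries, tagged GATA4 (GATA4fb) was biotinylated only where Tie2-Cre had acted and was pulled down with streptavidin (bioChIP) from pools of 15 to 20 E12.5 ventricles, with 3 libraries. The same pull-down with Tnnt2-Cre, a cardiomyocyte driver, gave 3 further libraries. Endothelial RNA (EC) came from 2 libraries of 60000 GFP+ cells sorted from Rosa26fsTrap;Tie2Cre ventricles at E12.5, and endothelial open chromatin from 2 omni-ATAC libraries of 40000 cells of the same genotype. Cardiomyocyte RNA (CM) came from 3 libraries labelled E12.5 cardiomyocytes, whose isolation was not given in the sources used here. Tie2-Cre is also active in blood cells and in mesenchyme that arises from endocardium. The labels do not tie replicates to separate litters. The p-values therefore measure only how far these samples spread, which may be technical. How far preparation differed between EC and CM is thus not known, and cell type and preparation cannot be told apart. In bulk samples fewer cells of a type and less RNA per cell cannot be told apart either.

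GATA4 is a zinc-finger transcription factor that binds the letters GATA in DNA. In the embryonic heart it acts in cardiomyocytes and also in the endocardium, the endothelial lining of the chambers, where it is needed for the endocardial cushions that become valves. Factors of this family bind promoters next to the TSS as well as distant enhancers, and they work with cofactors of the Friend of GATA family. An enhancer need not act on the nearest gene, so the assignment by distance is a convention.

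Promoter sequences are given to show the letters at endothelial GATA4 promoter regions. The first 6 belong to the strongest promoter regions found in all 3 Tie2-Cre libraries that hold the letters GATAA, and Tek and Emcn are endothelial genes with a promoter region. The windows run from 250 bases before to 50 bases after the RefSeq start (build GRCm38.p6), and capitals mark GATAA or its reverse complement TTATC. Gpn3 lies at chr5:122372258-122372557, plus strand. Galk2 lies at chr2:125858859-125859158, plus strand. Zfp426 lies at chr9:20492697-20492996, minus strand. Mylk3 lies at chr8:85380992-85381291, minus strand. Fbxo42 lies at chr4:141147672-141147971, plus strand. Psmc6 lies at chr14:45329574-45329873, plus strand. Tek lies at chr4:94739039-94739338, plus strand. Emcn lies at chr3:137340828-137341127, plus strand.
Gpn3: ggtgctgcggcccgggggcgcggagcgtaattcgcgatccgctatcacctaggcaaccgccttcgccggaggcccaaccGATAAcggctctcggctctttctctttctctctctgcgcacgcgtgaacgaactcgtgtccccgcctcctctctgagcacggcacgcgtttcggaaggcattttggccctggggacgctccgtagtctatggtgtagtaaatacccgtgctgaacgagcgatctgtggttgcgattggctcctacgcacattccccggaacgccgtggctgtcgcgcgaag
Galk2: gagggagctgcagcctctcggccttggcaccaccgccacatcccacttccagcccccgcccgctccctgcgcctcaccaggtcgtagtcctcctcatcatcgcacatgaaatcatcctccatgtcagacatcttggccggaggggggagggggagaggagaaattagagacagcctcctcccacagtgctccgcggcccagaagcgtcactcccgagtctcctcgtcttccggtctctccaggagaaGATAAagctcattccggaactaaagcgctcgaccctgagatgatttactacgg
Zfp426: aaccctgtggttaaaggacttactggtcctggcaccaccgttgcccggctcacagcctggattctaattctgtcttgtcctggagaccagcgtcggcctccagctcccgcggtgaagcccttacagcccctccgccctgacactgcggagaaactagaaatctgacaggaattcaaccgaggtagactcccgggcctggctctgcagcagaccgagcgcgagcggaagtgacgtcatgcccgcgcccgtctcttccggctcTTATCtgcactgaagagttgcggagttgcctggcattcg
Mylk3: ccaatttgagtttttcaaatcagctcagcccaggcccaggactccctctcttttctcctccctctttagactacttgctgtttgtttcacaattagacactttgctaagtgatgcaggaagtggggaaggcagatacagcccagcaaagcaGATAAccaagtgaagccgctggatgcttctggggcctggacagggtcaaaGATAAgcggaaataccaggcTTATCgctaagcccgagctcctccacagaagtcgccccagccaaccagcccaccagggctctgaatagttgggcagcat
Fbxo42: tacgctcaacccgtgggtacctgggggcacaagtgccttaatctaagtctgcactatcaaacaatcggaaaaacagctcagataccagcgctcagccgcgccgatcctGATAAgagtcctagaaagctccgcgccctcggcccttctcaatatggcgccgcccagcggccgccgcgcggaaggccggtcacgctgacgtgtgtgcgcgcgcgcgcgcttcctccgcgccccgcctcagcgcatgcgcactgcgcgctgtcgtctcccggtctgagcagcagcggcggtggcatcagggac
Psmc6: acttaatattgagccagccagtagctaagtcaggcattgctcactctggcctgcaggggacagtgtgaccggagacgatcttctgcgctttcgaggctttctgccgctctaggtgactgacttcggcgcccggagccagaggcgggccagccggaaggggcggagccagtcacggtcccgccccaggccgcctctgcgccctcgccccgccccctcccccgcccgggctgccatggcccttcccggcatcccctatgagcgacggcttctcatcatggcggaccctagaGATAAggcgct
Tek: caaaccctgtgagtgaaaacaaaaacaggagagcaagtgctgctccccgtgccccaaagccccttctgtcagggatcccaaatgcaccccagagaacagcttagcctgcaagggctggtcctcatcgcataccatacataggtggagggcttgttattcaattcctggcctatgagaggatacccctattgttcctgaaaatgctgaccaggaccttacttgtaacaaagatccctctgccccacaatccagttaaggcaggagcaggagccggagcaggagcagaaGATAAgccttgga
Emcn: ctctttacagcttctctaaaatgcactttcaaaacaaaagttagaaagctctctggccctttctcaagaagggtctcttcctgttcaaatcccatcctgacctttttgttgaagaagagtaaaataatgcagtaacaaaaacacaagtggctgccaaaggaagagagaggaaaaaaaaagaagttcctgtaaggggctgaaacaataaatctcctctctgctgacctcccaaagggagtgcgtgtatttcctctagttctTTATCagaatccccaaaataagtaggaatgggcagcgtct

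Mylk3, a cardiac myosin light chain kinase gene, held 3 copies of these letters and each of the other 7 promoters held 1. Their genes differed widely in EC level. Mylk3 stood at 2.2 CPM per kb (reads scaled to library size, CPM, and to kb of exon) in EC, Zfp426, a zinc-finger gene, at 5.74, and Psmc6, a proteasome subunit gene, at 85.5. Emcn, which encodes the endothelial sialomucin endomucin, stood at 252 CPM per kb, and Tek, the angiopoietin receptor gene that gives Tie2-Cre its promoter, at 197.

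Depth differed between libraries. The EC libraries held 27660790 and 21682362 gene reads, and the CM libraries held 48393473, 42948614 and 45522886. The Tie2-Cre peak lists held 17674, 2726 and 25929 peaks on the autosomes and sex chromosomes, and the Tnnt2-Cre lists 22807, 3596 and 30440. The second list of each driver was thus far shorter than the others. Of the 14228 regions 11597 rested on replicates 1 and 3 and 2474 were found in all 3 libraries, 121 in replicates 2 and 3, and 36 in replicates 1 and 2. The number of regions therefore depended on the long lists: without Tie2-Cre replicate 1 or 3, only 8 and 9 genes had 3 or more regions, against 436 without replicate 2. A missing peak is not proof that GATA4 was not bound.

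Most regions were distal and nearly all were open. A promoter region made up 2295 cases (16.1%), a distal region within 50 kb 6473 (45.5%), and 5460 (38.4%) lay farther from any TSS and were given to no gene. The median distance to the TSS was 215 bp for promoter and 17920 bp for distal regions. Both EC ATAC libraries had a peak at 99.7% of promoter regions, at 92.4% of distal ones and at 86.6% of those beyond 50 kb. Sharing with the other driver differed by place: 72.1% of promoter regions, against 42.9% of distal regions, also had a peak in at least 2 Tnnt2-Cre libraries.

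Genes with more endothelial GATA4 regions had more endothelial RNA. The median EC level was 0.168 CPM per kb for genes with 0 regions, 4.53 with 1, 6.50 with 2 and 7.72 with 3 or more. In EC replicate 1 the medians were 0.160, 4.59, 6.47 and 8.11 CPM per kb in that order, and in EC replicate 2 they were 0.153, 4.54, 6.41 and 7.69. Both libraries gave the same order, and the step from 0 to 1 region was the main one. On the scale of log2(CPM per kb + 0.1), genes with 3 or more regions lay 4.98 and 4.95 above genes with 0 regions in the EC libraries, and 0.81 and 0.75 above genes with 1. Levels within a class spread widely: the middle 50% of genes with 3 or more regions ran between 0.207 and 23.8 CPM per kb, and that of genes with 0 regions between 0 and 6.59. Across 24117 genes the Spearman correlation of region number with EC level was 0.25, which describes genes of shared libraries and is no test.

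**Figure D1:**
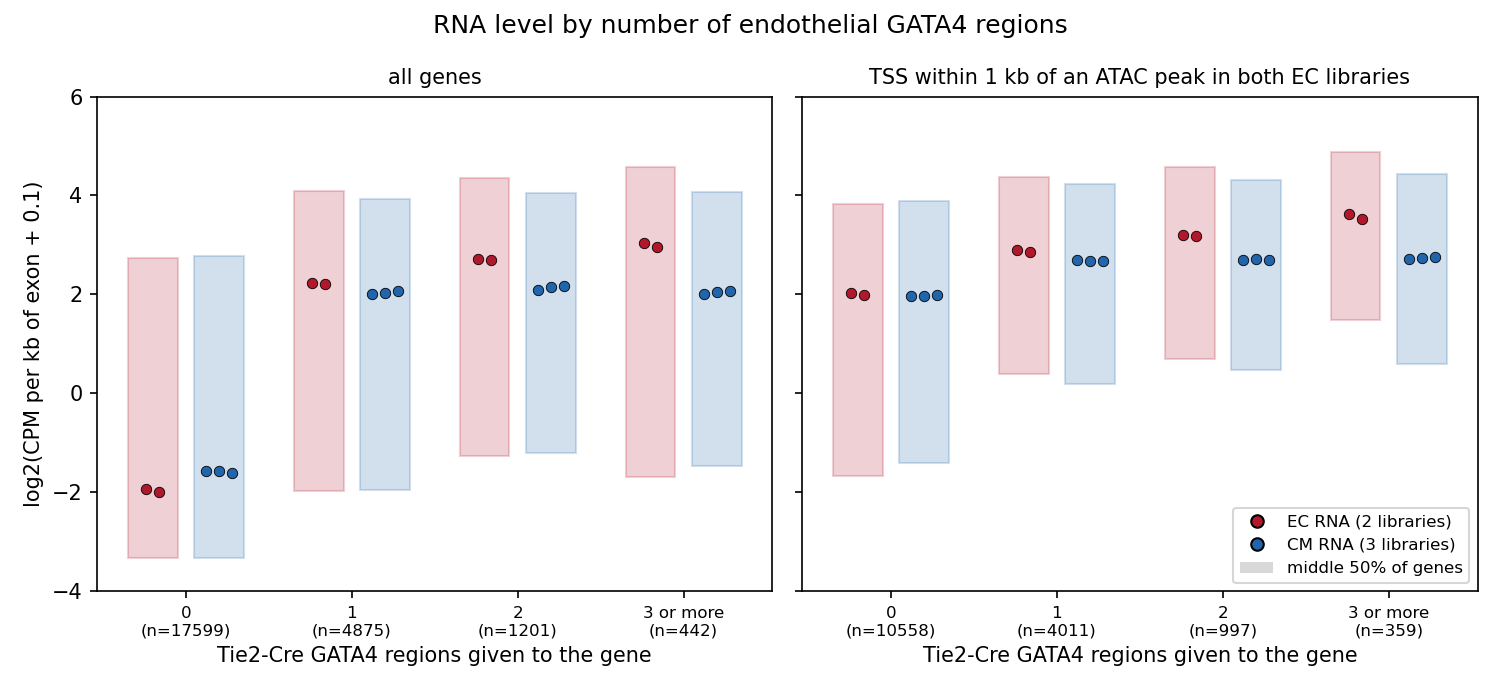
RNA level on the log2(CPM per kb of exon + 0.1) scale by number of Tie2-Cre GATA4 regions, for all genes (left) and for genes with an ATAC peak within 1 kb of the TSS in both EC libraries (right). Points are the medians of single EC (red) and CM (blue) libraries and boxes the middle 50% of genes on the group mean. EC medians lie higher with each step in region number, and CM medians are nearly level at 1 or more regions.

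The share of genes with any appreciable RNA moved with region number as well. At least 1 CPM in EC was reached by 44.0% of genes with 0 regions, 69.8% with 1, 73.7% with 2 and 70.8% with 3 or more. Among genes with at least 1 CPM the medians lay closer together, at 8.38, 10.3, 12.3 and 14.5 CPM per kb for the same order of classes, and the correlation across these 12340 genes was 0.096. The difference in median log2 level between 3 or more regions and 0 regions was 4.87 over all genes and 1.17 over genes with at least 10 counts in EC, so its size was set largely by genes with no or little RNA. With a pseudocount of 1 it was 2.90.

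Open chromatin at the TSS moved with region number too. An ATAC peak within 1 kb of the TSS in both EC libraries, called an open TSS here, was present for 60.0% of genes with 0 regions, 82.3% with 1, 83.0% with 2 and 81.2% with 3 or more. Among the 15925 genes with an open TSS the EC medians were 3.93, 7.24, 8.99 and 12.1 CPM per kb for 0, 1, 2 and 3 or more regions. The order was thus the same at open promoters, with a smaller range. Genes without an open TSS had medians of 0, 0, 0.00725 and 0 CPM per kb, so a GATA4 region near a closed TSS went with hardly any RNA.

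Gene length and spacing also differed between classes. The median exon length was 1995 bp for genes with 0 regions and 2676, 2889 and 2959 bp for genes with 1, 2 and 3 or more. The share of genes with no other TSS within 50 kb was 20.3%, 30.8%, 46.0% and 68.6% in the same order. Among genes with no other TSS within 50 kb the EC medians were 0.0608, 2.51, 7.49 and 8.75 CPM per kb. Among genes with exons over 3060 bp they were 3.01, 6.71, 9.35 and 14.5, and at 1463 to 3060 bp they were 0.402, 5.23, 5.37 and 4.51. With exons up to 1463 bp they were 0, 0.227, 0.146 and 0, so the order over 1, 2 and 3 or more regions held in the longest class and not in the other two. What part length and spacing have in the result was not tested.

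The same classes of genes were then read in cardiomyocyte RNA. The CM medians were 0.235 CPM per kb for genes with 0 regions and 3.95, 4.41 and 3.95 for genes with 1, 2 and 3 or more. Genes with 3 or more regions lay above genes with 0 regions by 4.98 and 4.95 (log2) in EC libraries and by 3.59, 3.62 and 3.68 in CM libraries. The mean difference between EC and CM was 1.33 (exact permutation test over libraries, two-sided p = 0.2, the smallest that 2 against 3 can give). Above genes with 1 region they lay by 0.81 and 0.75 in EC and by 0.00, 0.04 and 0.02 in CM, a difference of 0.76 with the same smallest exact p of 0.2. The gain between 1 region and 3 or more was thus near 0 in the CM libraries, without overlap with EC. This difference between EC and CM was -0.16 without Tie2-Cre replicate 3, where 9 genes had 3 or more regions. The gain in EC was 0.08 within 20 kb, and 3.61 and 2.88 without Tie2-Cre replicate 1 or 3, on 8 and 9 genes. With the peaks of single Tie2-Cre lists it was 0.91, 2.56 and 0.82 in EC and 0.31, 2.98 and 0.31 in CM for replicates 1 to 3, so the near absence of a gain in CM did not hold there. At open TSS the difference between 3 or more and 0 regions was 1.61 and 1.54 in EC and 0.74, 0.77 and 0.77 in CM.

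Genes bound at the promoter had more RNA than genes bound only at a distance. The median EC level was 9.96 CPM per kb for 2248 genes with a promoter region and 2.08 for 4270 genes with distal regions only. At least 1 CPM was reached by 88.5% of genes with a promoter region and by 61.2% of those with distal regions only. A distal region beside a promoter region made little difference, with a median of 10.3 CPM per kb for 492 genes with both and 9.87 for 1756 with a promoter region only. Per library the log2 difference between promoter and distal-only genes was 2.22 and 2.21 in EC and 2.26, 2.2 and 2.17 in CM. It was as large in CM as in EC (mean difference 0.01, exact permutation test, two-sided p = 1). With at least 10 counts in EC it was 0.58, and over protein-coding genes it was 1.12.

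**Figure D2:**
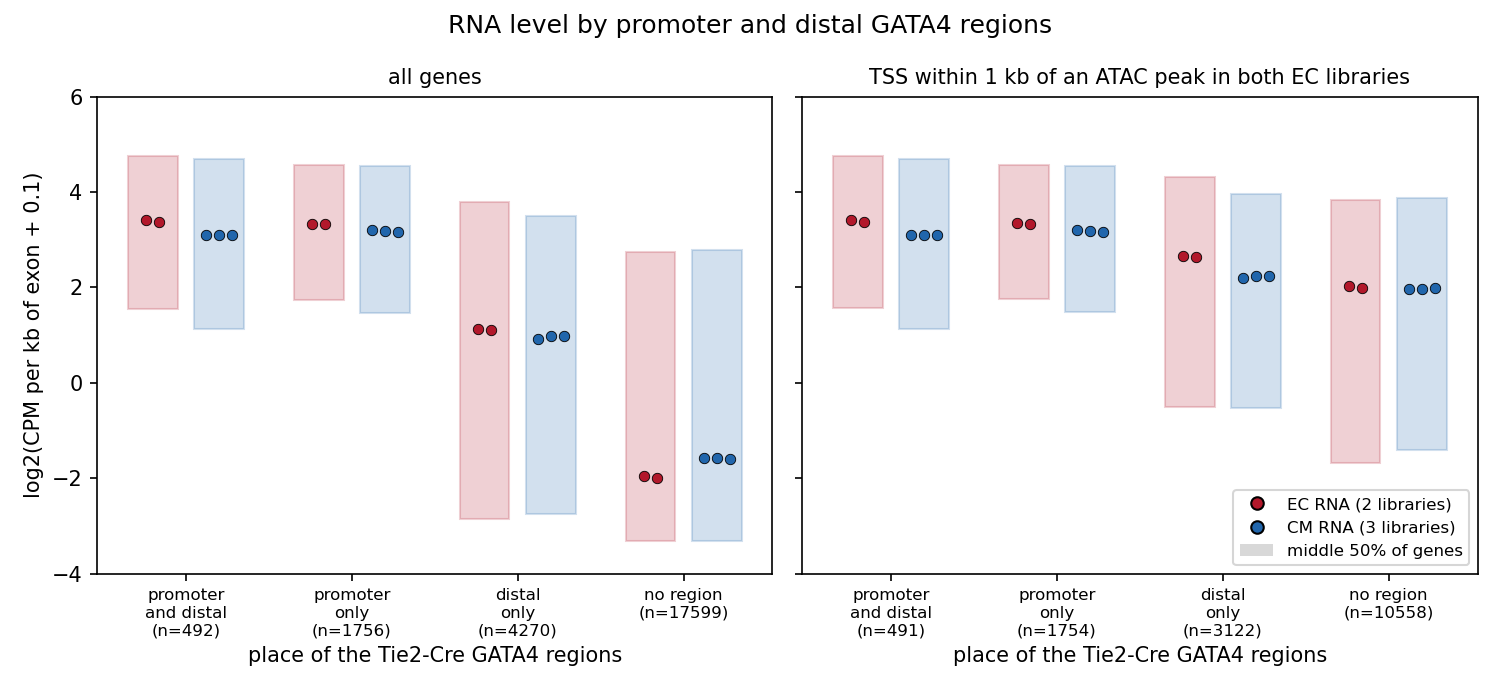
RNA level on the log2(CPM per kb of exon + 0.1) scale by the place of the Tie2-Cre GATA4 regions of a gene, for all genes (left) and for genes with an open TSS (right). Points are medians of single EC (red) and CM (blue) libraries and boxes the middle 50% of genes. Genes with a promoter region lie near 10 CPM per kb in EC whether or not they also have a distal region, genes with distal regions only lie lower in both cell types, and genes with no region lie lowest.

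At open TSS the gap between promoter and distal-only genes was smaller, and smaller in EC than in CM. Genes with an open TSS and a promoter region had medians of 9.98 CPM per kb in EC and 8.90 in CM, and those with distal regions only 6.22 in EC and 4.61 in CM. The log2 difference between promoter and distal-only genes was 0.68 and 0.69 in the EC libraries, against 0.98, 0.94 and 0.92 in the CM libraries (exact permutation test, two-sided p = 0.2, the smallest possible). The EC and CM libraries did not overlap.

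Read the other way, from RNA level to occupancy, the share of genes with a region was higher in the upper deciles of EC level. Below 1 CPM in EC, 16.3% of 11777 genes had a region. Genes of at least 1 CPM were put in deciles of 1234 genes by CPM per kb, and the share with a region was 28.8% in the lowest and 42.4% in the highest decile. A promoter region was present in 2.2% of genes below 1 CPM, in 8.02% of the lowest decile and in 19.4% of the highest. A distal region was present in 14.6%, 22.4% and 28.4% of the same sets. The promoter share thus differed more along the range of levels than the distal share. An open TSS was present in 35.2% of genes below 1 CPM and in 98.7% of the highest decile. Among genes with an open TSS the promoter share was 6.2% below 1 CPM and 19.6% in the highest decile. The distal share was 18.4% and 28.0% there. Most genes in the highest decile still had no region by this rule.

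**Figure D3:**
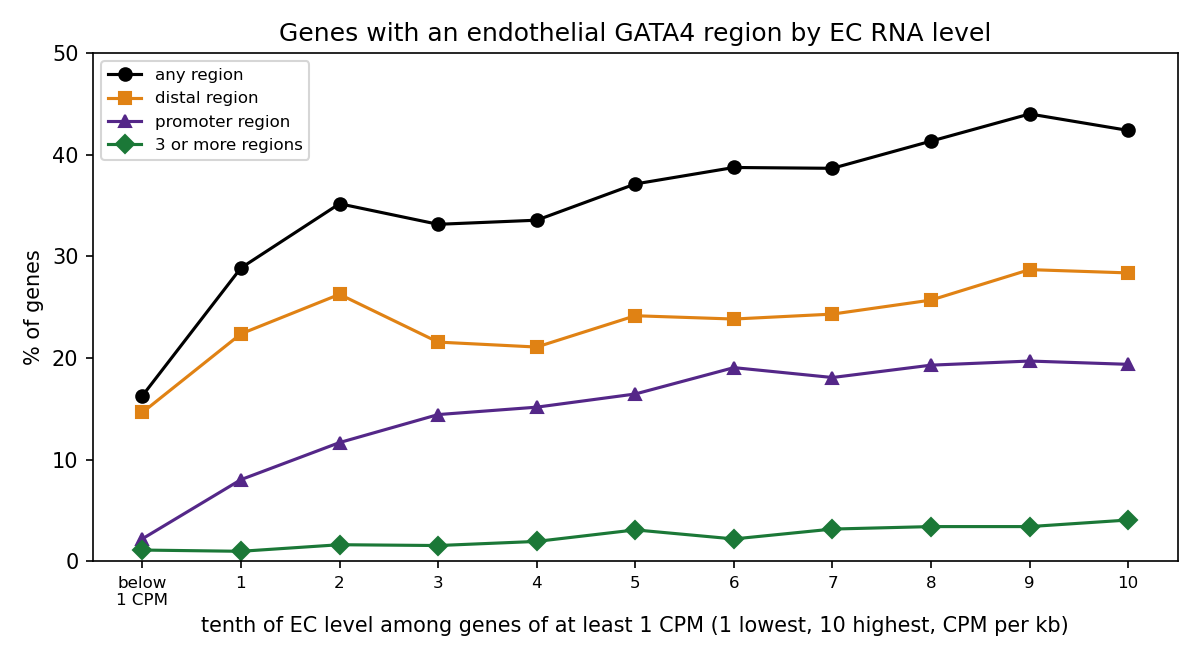
Percent of genes with any, a distal, a promoter, or 3 or more Tie2-Cre GATA4 regions (y axis) by EC level (x axis: genes below 1 CPM, then deciles of the genes of at least 1 CPM by CPM per kb). The share with any region is 16.3% below 1 CPM and 42.4% in the highest decile.

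Stronger peaks did not go with higher RNA, and weaker ones tended to lie at genes with more of it. The deposited fold of each peak over background is the authors' own value and was used only to rank peaks within a list. For genes with a single region, ranks were averaged over the libraries with a peak and the genes put in 3 equal classes. Ranks were relative to each list, and that of replicate 2 held 2726 peaks against 17674 and 25929. A region found in all 3 libraries could thus rank weaker through its place in the short list. These classes are therefore not a clean order of strength, whereas the quartiles further below stay within single lists. From strongest to weakest, the EC medians were 8.76, 9.36 and 10.9 CPM per kb for 1 promoter region (573 genes each) and 0.975, 1.65 and 2.76 for 1 distal region (1052 genes each). In the full list of Tie2-Cre replicate 1, genes with a promoter peak had EC medians of 8.80, 9.31, 10.1 and 10.9 CPM per kb from the strongest to the weakest quartile of folds. In replicate 3 the same quartiles had 9.40, 8.84, 9.22 and 12.6 CPM per kb, and in the short list of replicate 2 they had 9.50, 7.26, 7.47 and 9.25. The weakest quartile held the highest median in replicates 1 and 3 and the strongest quartile in replicate 2. For genes with a distal peak the weakest quartile had the highest median in each library, at 4.20, 6.64 and 3.15 CPM per kb against 2.13, 3.77 and 2.28 in the strongest quartile. In no library did the strongest distal peaks go with the highest RNA.

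The 5 genes with the strongest promoter regions had EC levels on both sides of 9.96 CPM per kb, the median of genes with a promoter region. Ttc32, a tetratricopeptide repeat gene, had folds of 13.8, 15.0 and 13.6 in Tie2-Cre replicates 1 to 3, and its region (chr12:9029478-9030555) covered the first exon. Its level was 3.90 and 3.74 CPM per kb in EC, against 8.39, 8.73 and 9.12 in CM, a log2 fold change of -1.24 (SE 0.16, edgeR quasi-likelihood test, adjusted p = 2.99e-05). Galk2, which encodes a galactokinase-family enzyme, stood at 9.03 and 9.04 in EC and at 18.6, 15.8 and 16.6 in CM. Alkbh3, a DNA and RNA demethylase gene, stood at 11.7 and 11.1 in EC and at 17.1, 19.2 and 19.2 in CM. Rnpc3, a protein gene of the minor spliceosome, stood at 9.0 and 6.61 in EC and at 14.4, 13.1 and 13.9 in CM. These 4 were lower in EC, and Gpn3, a GTPase gene, did not pass the test with 17.6 and 20.0 in EC and 22.5, 20.4 and 19.4 in CM. Among all tested genes 40.2% were lower in EC, so 5 genes are too few to describe strong promoter regions. All 5 promoter regions were also found in all 3 Tnnt2-Cre libraries, where 72.1% of all promoter regions had a peak in at least 2.

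The comparison of EC with CM RNA asked whether genes with Tie2-Cre regions were those of the endothelium. It used the same EC libraries as the levels above, so only its CM side was new. Of 14851 genes tested, 37.5% were higher and 40.2% lower in EC, 77.8% in either direction (edgeR quasi-likelihood test, Benjamini-Hochberg adjusted p under 0.05). Genes higher in EC made up 34.4% of the 9661 tested genes with 0 regions, 41.2% of 3830 with 1, 47.4% of 986 with 2 and 56.9% of 350 with 3 or more. Genes lower in EC made up 42.1%, 38%, 33.9% and 28.9% in the same order. The median log2 fold change was -0.13, 0.04, 0.21 and 0.62. Past a fold of 2 as well, 22.2% of all tested genes were higher and 22.6% lower, against 38% and 15.7% of those with 3 or more regions. The order was the same at open TSS, where 35.5%, 41.6%, 47.3% and 59.6% were higher in EC, and among genes with no other TSS within 50 kb, where 29.3%, 40.0%, 48.3% and 57.7% were.

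**Figure D4:**
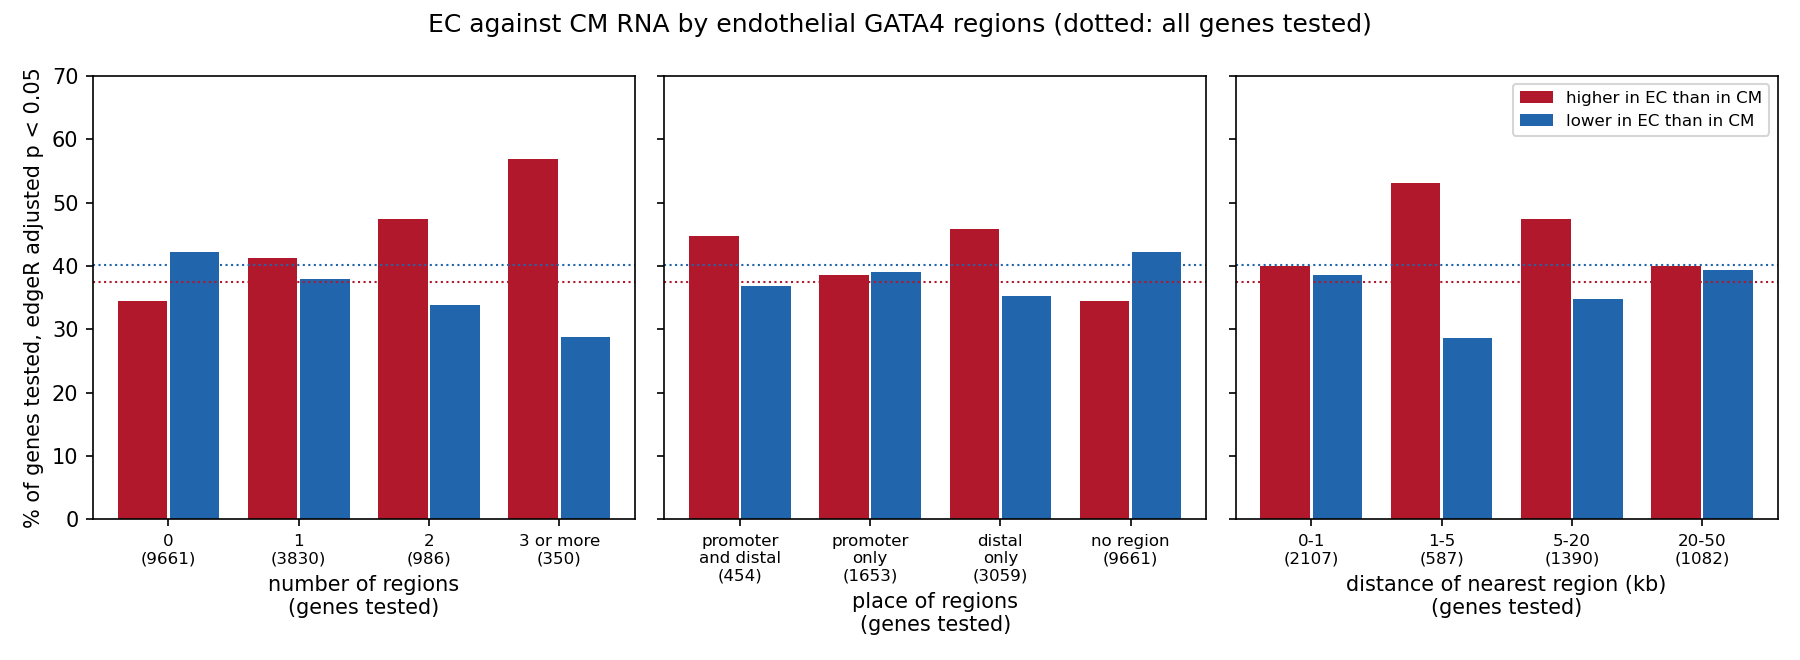
Percent of tested genes that were higher (red) or lower (blue) in EC than in CM (edgeR quasi-likelihood test, adjusted p under 0.05), by number of Tie2-Cre regions, by their place and by distance of the nearest region to the TSS in kb. Dotted lines give the share over all genes tested, 37.5% higher and 40.2% lower. Genes with 3 or more regions, with distal regions only, and with the nearest region at 1 to 5 kb have the higher red bars in their panels.

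Genes bound only at a distance leaned towards EC, and genes bound only at the promoter stood close to the shares over all genes. Genes with distal regions only were higher in EC in 45.8% and lower in 35.2% of 3059 cases, with a median log2 fold change of 0.19. Genes with a promoter region only were higher in 38.6% and lower in 39.1% of 1653 cases, with a median of -0.01. Genes with both kinds were higher in 44.7% and lower in 36.8% of 454 cases. By distance of the nearest region, the share higher in EC was 39.9% within 1 kb, 53.2% at 1 to 5 kb, 47.3% at 5 to 20 kb and 39.9% at 20 to 50 kb. The bin from 1 to 5 kb, with 587 tested genes, had the highest share.

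Sharing of a region with the Tnnt2-Cre libraries also divided the genes. Among genes with a single distal region, 48.5% of 959 tested were higher and 31.2% lower in EC where no Tnnt2-Cre library had a peak. Where 2 or 3 Tnnt2-Cre libraries had one, 38.1% of 1020 were higher and 41.9% lower. Among genes with a single promoter region the shares were 55.4% higher and 27.7% lower of 166 tested without a Tnnt2-Cre peak, and 37.1% higher and 40.2% lower of 1196 with a peak in 2 or 3 libraries. Only 12.6% of promoter regions lacked a Tnnt2-Cre peak in every library, against 46.1% of distal regions.

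Taken per GATA4 library, the genes nearest to Tie2-Cre peaks had a mean log2 fold change of EC over CM of 0.05, 0.13 and 0.01 in replicates 1 to 3. The genes nearest to Tnnt2-Cre peaks had means of -0.31, -0.77 and -0.28. The means were 0.06 ± 0.06 for Tie2-Cre and -0.45 ± 0.27 for Tnnt2-Cre (SD, n = 3 each), a difference of 0.51 (exact permutation test, two-sided p = 0.1, the smallest that 3 against 3 can give). The drivers did not overlap, and the Tie2-Cre values lay close to 0. With genes split by place, the difference was 0.42 for genes with a promoter peak and 0.55 for genes with distal peaks only, both at the same smallest p of 0.1.

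Gene lists of the ventricle show which genes made up these classes. The EC libraries carried their cell type: the 24 endothelial junction and surface genes summed to 9482 and 9285 CPM in EC, against 1627, 1627 and 1415 CPM in CM. The 26 sarcomere genes summed to 1191 and 1185 CPM in EC and to between 116420 and 124049 CPM in CM. The 20 blood and macrophage genes summed to 73.5 and 69.7 CPM in EC, and to between 1422 and 3305 CPM in CM. By gene, 8 of the 18 tested were higher and 6 lower in EC, so the sums do not describe each member. In EC the pan-leukocyte gene Ptprc stood at 1.48 and 1.29 CPM. Some genes stand in several lists.

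**Figure D5:**
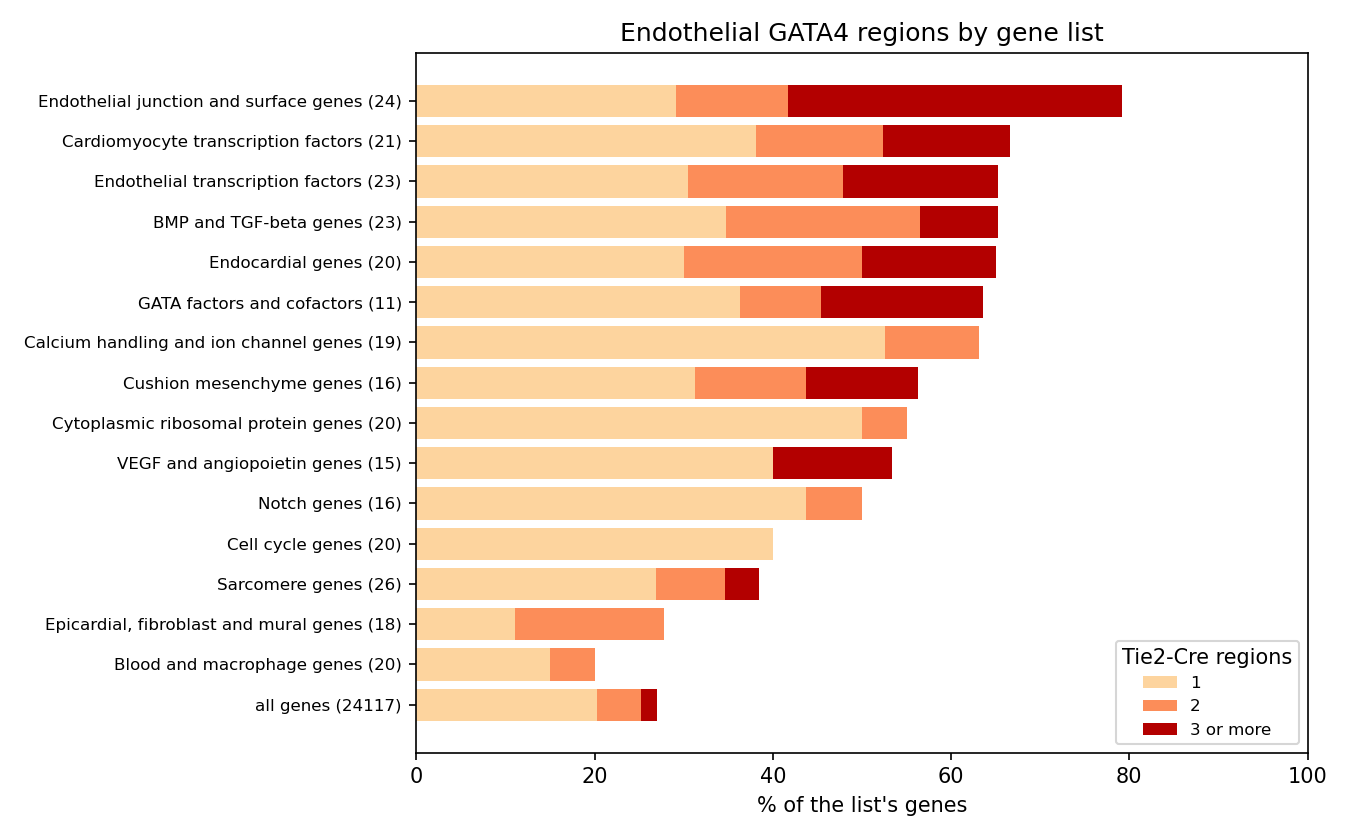
Percent of each list's genes (number in brackets) with 1, 2 or 3 or more Tie2-Cre GATA4 regions, with all placed genes in the lowest bar. The endothelial junction and surface list has the highest share with a region, 79.2% against 27.0% over all genes, and the blood and macrophage list the lowest, 20.0%.

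Endothelial junction and surface genes had the most regions of all lists. Of 24 genes 19 had a region, 9 had 3 or more and 9 had a promoter region, and all 19 were higher in EC, as were the 5 without. The median EC level was 125 CPM per kb for the 19 genes with a region and 19.3 for the 5 without. Tek had 5 regions, of which the promoter region (chr4:94738801-94739619, 79 bp from the TSS) was found in all 3 Tie2-Cre libraries with folds of 8.41, 7.70 and 7.26 and in no Tnnt2-Cre library. Tek stood at 193 and 201 CPM per kb in EC and at 46.0, 45.6 and 35.6 in CM, a log2 fold change of 2.17 (SE 0.10, edgeR adjusted p = 9.48e-09). The Tie2-Cre transgene carries Tek regulatory DNA, and whether this DNA added to the peaks at Tek was not tested. Ptprb, the endothelial receptor phosphatase gene that acts on Tie2, had 5 distal regions. It stood at 14.7 and 15.9 CPM per kb in EC and at 1.70, 1.87 and 1.94 in CM. Emcn had 4 regions, 1 of them over its first exon (chr3:137341002-137341321) and absent from Tnnt2-Cre lists, and stood at 257 and 247 CPM per kb in EC against 63.2, 54.6 and 39.5 in CM. Mmrn2, a matrix protein gene of endothelium, had 0 regions and still 110 and 101 CPM per kb in EC, against 26.5, 26.4 and 21.6 in CM.

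Of 23 endothelial transcription factor genes 15 had a region and 4 had 3 or more, and all 23 were higher in EC. Fli1, an ETS factor, had 4 regions and stood at 39.7 and 42.6 CPM per kb in EC, against 6.07, 6.34 and 6.86 in CM. Epas1, a hypoxia-inducible factor gene, had 3 and stood at 49.3 and 53.7 in EC, against 2.49, 2.93 and 2.42 in CM. Sox7, a SoxF factor, had 3 and stood at 42.0 and 43.5 in EC, against 3.14, 3.44 and 4.28 in CM. Here the level did not follow region number: the median EC level was 24.8 CPM per kb for genes with a region and 33.4 for the 8 without. The ETS factor Ets2, with 0 regions, stood at 83.4 and 92.6 in EC, above all 3.

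The GATA genes and their cofactors had regions of their own. Of 11 genes 7 had a region, next to 27.0% of all genes, and all 7 were higher in EC. Over the whole list 9 of the 11 were higher and 1 lower in EC, next to 37.5% and 40.2% of all tested genes. Zfpm1, which encodes Friend of GATA 1, had 7 regions, all within the gene, 717 to 32938 bp from its TSS, the first of them a promoter region (chr8:122282617-122283099). It stood at 39.2 and 34.4 CPM per kb in EC and at 6.49, 6.92 and 6.84 in CM, a log2 fold change of 2.40 (SE 0.08, edgeR adjusted p = 9.77e-10). Its paralog Zfpm2, Friend of GATA 2, had 0 regions and stood at 5.08 and 4.14 CPM per kb in EC, against 5.92, 6.38 and 7.19 in CM. Gata2, an endothelial and blood stem cell factor, had 3 distal regions and stood at 21.9 and 20.9 in EC and at 0.771, 0.797 and 0.759 in CM. Gata4 itself had 1 distal region (chr14:63255933-63256350, 10881 bp upstream, between genes), also found in all 3 Tnnt2-Cre libraries. Gata4 stood at 76.0 and 73.2 CPM per kb in EC and at 18.6, 22.2 and 25.2 in CM. Gata5 had 1 distal region and Gata6 1 promoter region. Tal1, a helix-loop-helix partner of GATA factors in blood and endothelium, had 1 promoter region. Lmo2, the adaptor in the same complex, had 2 distal ones. Ldb1, which joins such complexes to each other, and Gata3 had 0 regions and were nevertheless higher in EC, with Ldb1 at 67.2 and 74.3 CPM per kb against 28.2, 33.7 and 31.5 in CM.

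Endocardial and cushion genes with a region were mostly higher in EC, and so were their lists as a whole. Higher in EC were 17 of all 20 endocardial and 14 of all 16 cushion genes, against 37.5% of all tested genes. Of 20 endocardial genes 13 had a region and 2 a promoter region, which 9.32% of all genes had, and 12 of the 13 were higher in EC and 1 lower. Hapln1, which links hyaluronan in the cardiac jelly, had 3 distal regions, 1 of them (chr13:89493144-89493543) in all 3 Tie2-Cre libraries and 47293 bp upstream. It stood at 293 and 300 CPM per kb in EC and at 5.0, 5.53 and 4.67 in CM, a log2 fold change of 5.83 (SE 0.09, edgeR adjusted p = 1.67e-11). Edn1, the endothelin ligand gene, had 2 promoter regions and 1 distal one and stood at 20.7 and 21.6 in EC, against 5.43, 4.75 and 5.46 in CM. Ece1, which encodes the enzyme that activates endothelin, had 3 distal regions and stood at 319 and 309 in EC, against 27.3, 30.9 and 24.0 in CM. Fn1, the fibronectin gene, had 0 regions and the highest level of these 4, 838 and 815 in EC against 71.7, 77.7 and 61.1 in CM. The median of the 13 genes with a region was 24.8 CPM per kb in EC, below the 89.5 of the 7 without.

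Of 16 cushion mesenchyme genes 9 had a region, of which 8 were higher and 1 lower in EC. Col3a1, a fibrillar collagen gene, had 4 distal regions and stood at 308 and 296 CPM per kb in EC, against 52.2, 51.2 and 62.3 in CM. Vcan, the versican gene of the cushion matrix, had 0 regions at 112 and 112 CPM per kb in EC, against 63.5, 65.0 and 57.2 in CM.

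Signalling genes with a region were also mostly higher in EC, and so were their lists as a whole. Higher in EC were 11 of all 15 VEGF and angiopoietin genes, 12 of 16 Notch genes and 16 of 23 BMP and TGF-beta genes. The share over all tested genes was 37.5%. Of 15 VEGF and angiopoietin genes 8 had a region, and 7 of these were higher in EC and 1 lower. The VEGF receptor gene Flt1 had 3 distal regions and stood at 45.5 and 48.7 CPM per kb in EC, against 6.85, 7.32 and 6.88 in CM. Kdr, the main signalling receptor for VEGF, had 1 region in an intron (chr5:75962280-75962563) and stood at 165 and 165 in EC, against 24.8, 27.1 and 23.9 in CM. The semaphorin receptor gene Plxnd1 had 0 and stood at 207 and 199 in EC, against 18, 20.5 and 16.9 in CM. Of 16 Notch genes 8 had a region, 6 of them higher and 1 lower in EC. Hes1, a Notch target, had a promoter region and stood at 106 and 114 in EC, against 25, 24.0 and 18.2 in CM. Of 23 BMP and TGF-beta genes 15 had a region, 11 of them higher and 1 lower in EC. The BMP receptor gene Bmpr1a had 3 regions and did not pass the test, at 35.0 and 32.9 CPM per kb in EC and 36.2, 35.4 and 38.1 in CM.

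Genes of the cardiomyocyte had endothelial GATA4 regions too, and most of those with a region were lower in EC than in CM. So were most genes of each list as a whole, next to 40.2% of all tested genes. The median EC level of the genes with a region was 19.4 CPM per kb in the sarcomere list, 13.8 in the cardiomyocyte transcription factor list and 0.786 in the calcium list. Of 26 sarcomere genes 10 had a region, and all 10 were lower in EC, as were the other 16. Tnni1, the slow troponin I gene, had 3 distal regions and stood at 57.0 and 66.1 CPM per kb in EC, against 1032, 918 and 1032 in CM. Tnnt2, cardiac troponin T, had 2 and stood at 64.9 and 67.4 in EC, against 3679, 4304 and 4689 in CM. Of 19 calcium handling and ion channel genes 12 had a region, and 11 of these were lower in EC and 0 higher. Over the whole calcium list 18 were lower and 0 higher. Casq2, cardiac calsequestrin, had 2 and stood at 0.460 and 0.899 in EC, against 91.6, 87.3 and 125 in CM. Of 21 cardiomyocyte transcription factor genes 14 had a region, with 5 higher and 9 lower in EC. Over that whole list 8 were higher and 13 lower. Hopx, a small homeodomain protein gene, had 3 regions and stood at 2.49 and 2.57 in EC, against 76.6, 69.1 and 73.1 in CM. Prox1, also a lymphatic endothelial factor, had 3 and stood at 3.60 and 4.50 in EC, against 11.2, 13.6 and 17.2 in CM. The share with a region was 63.2% in the calcium list and 66.7% in the cardiomyocyte transcription factor list, next to 65.2% of endothelial transcription factor genes. It was 38.5% in the sarcomere list and 27.0% over all genes.

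Blood and epicardial lists stood near or below the share of all genes with a region, 27.0%. Of 20 blood and macrophage genes 4 (20.0%) had a region, 2 of them higher in EC and 0 lower. Epor, the erythropoietin receptor gene, had a promoter region and stood at 4.47 and 4.89 CPM per kb in EC, against 0.418, 0.458 and 0.336 in CM. Hbb-y, an embryonic globin gene, had 0 regions and stood at 20.3 and 19.4 in EC, against 4851, 3603 and 1919 in CM. Of 18 epicardial, fibroblast and mural genes 5 (27.8%) had a region, 3 of them higher in EC and 2 lower. Over that whole list 5 were higher and 12 lower in EC. Pdgfra and Pdgfrb, the platelet-derived growth factor receptor genes of mesenchyme, had 2 distal regions each and stood at 32.9 and 32.1 and at 31 and 31.2 CPM per kb in EC.

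Ribosomal protein genes with a region were mostly bound at promoters, and their split between EC and CM was much like that of their whole list. Of 20 cytoplasmic ribosomal protein genes 11 had a region and 9 a promoter region, next to 27.0% and 9.32% of all genes. Over the whole list 9 were higher and 10 lower in EC, next to 37.5% and 40.2% of all tested genes. Of these 11 genes 5 were higher and 5 lower in EC, and their median was 398 CPM per kb in EC against 443 for the 9 without a region. Rpl4 had a promoter region and stood at 1212 and 1273 CPM per kb in EC, against 1348, 1393 and 1362 in CM. Of 20 cell cycle genes 8 had a region, 5 of them higher and 3 lower in EC, and none had more than 1 region. Over the whole cell cycle list 9 were higher and 10 lower in EC. A promoter region was present in 2 cell cycle genes and a distal region in 6.

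Region number and level parted most at the ends of both ranges. Of the 442 genes with 3 or more regions, 72 had 0 counts in both EC libraries. Among genes with 0 regions the lower quartile of EC level was itself 0, so a larger share of those genes had 0 counts. Mir101c, a microRNA gene, had 15 regions on chromosome 9 between 2999909 and 3038317, each with peaks in both ATAC libraries and in at least 2 Tnnt2-Cre libraries, and was at 0 in EC. Whether reads from other copies of this sequence added to these peaks was not tested. Gm5086, a long noncoding RNA gene, had 6 regions and was at 0 in EC, and 4933440J02Rik, Gm19689 and Mir3089 had 5 each and were at 0. Ly86, a myeloid surface protein gene, had 6 regions and stood at 0.435 and 1.02 CPM per kb in EC, and Rfx8, an RFX factor gene, had 6 and stood at 0.615 and 0.415.

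At the other end, the highest genes with 3 or more regions were Rn45s, Calm2, Fstl1, Aplp2 and Col18a1. Rn45s, the ribosomal RNA precursor, exists in many copies, so its reads and its 3 regions may come from several of them. It stood at 9896 and 9163 CPM per kb in EC, against 202, 342 and 324 in CM. Calm2, a calmodulin gene, had 4 regions and stood at 683 and 649 in EC, against 435, 437 and 392 in CM. Fstl1, which encodes a secreted follistatin-like protein, had 3 and stood at 489 and 503 in EC, against 366, 337 and 299 in CM. These levels in EC lay above those in CM for both genes. Col18a1, a basement membrane collagen gene, had 3 distal regions and stood at 365 and 331 in EC, against 67.9, 72.4 and 62.1 in CM. Aplp2, an amyloid precursor-like gene, had 3 and stood at 372 and 376 in EC, against 107, 112 and 103 in CM.

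Some of the most abundant endothelial transcripts had no region by this rule. Igf2, the imprinted growth factor gene, stood at 3217 and 3239 CPM per kb in EC, against 251, 284 and 295 in CM. Cdkn1c, an imprinted inhibitor of the cell cycle, stood at 2370 and 2355 in EC, against 519, 562 and 389 in CM. Hsp90ab1, a chaperone gene, stood at 2303 and 2335 in EC, against 720, 909 and 800 in CM. All 3 had an open TSS.

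The promoter letters were counted last. RefSeq promoters were matched to 17067 genes by symbol, chromosome and strand, of which 16696 lay within 1 kb of the TSS used here. GATAA, on either strand, stood in 30.7% of 1386 windows that overlapped a region and in 42.4% of 170 windows with a region in all 3 libraries. It stood in 13.5% of 10088 windows at an open TSS without a region and in 22.4% of all windows. Windows at a closed TSS had GATAA in 37.3% of 5222 cases. They also had the lowest G and C content, with a median of 45.7%, against 60.0% in windows with a region and 61.3% at an open TSS without one. The longer letters AGATAA or TGATAA, which contain GATAA, stood in 21.1% of windows with a region and in 8.10% at an open TSS without one. CACGTG, a set of letters unrelated to GATA that was added after the data were seen, stood in 10.0% and 10.1% of the same windows, so it did not differ between them in this way.

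The letters did not go with a higher level. Among the 1386 promoters with a region, the median EC level was 9.25 CPM per kb for the 426 with GATAA and 10.4 for the 960 without. GATAA stood in 47.7% of the 128 windows with a region whose gene was below 1 CPM in EC and in 29.0% of the 1258 whose gene was not. The median G and C content was 55.7% in the former and 60.0% in the latter. What part base content has in this was not tested. A match is a description of the letters, not of a site.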

How the data were processed

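Read counts per gene were deposited by the authors for 2 EC and 3 CM libraries, with no normalization. Per the file headers, featureCounts 1.6.3 made them in its forward-stranded mode; the build was mm10. Peaks were deposited by the authors as 1 list per library with a fold over background (a ratio) and −log10 p and q values. MACS2 2.2.4, Bowtie 1.1.1, Bowtie2 2.2.9, STAR 2.7.3a and deepTools 3.3.1 are named in the submitters' processing notes without their roles. Use of a control library was not given in the sources used here.

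From these, counts were scaled to CPM and divided by exon length. EC and CM were compared with edgeR 4.0.16 in R 4.3.3 (TMM, filterByExpr, quasi-likelihood test, Benjamini-Hochberg adjustment over all genes tested, threshold 0.05), with DESeq2 1.42.0 as the other tool. Peaks sharing at least 1 bp were merged in Python 3.11.15 (pandas 2.3.3, numpy 2.4.6, scipy 1.17.1; figures by matplotlib 3.10.9). The TSS was the outermost exon end in the count table. Of its 24421 genes, 144 on several chromosomes or strands, 150 with copies lying apart and 10 on other sequences were left out. Coordinates are mm10, counted from 1. Region assignment and the test were checked on simulated data. The labels do not say whether replicate numbers pair the samples, and the main tests treated them as unpaired. Correlations of same-numbered libraries were near or below 0, but with so few libraries per group this check cannot exclude pairing.

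The members, gene lists and tests were chosen with earlier results of these data known. The text names the GATA genes with their cofactors, the 5 genes with the most regions, the 5 highest and 5 lowest in EC level with 3 or more regions, the 5 highest with 0, the 5 with the strongest promoter region in all 3 libraries, and per list the 3 members with the most regions and the highest with 0. Promoter sequences were the first 6 by strength with GATAA outside chromosome 18. Tek and Emcn, and Ptprc as an example beyond this rule, were added after their values were seen. Not every gene the rule names is reported here. Alternatives were other scalings, pseudocounts and filters, protein-coding genes, other distances, stricter peaks, lists of equal length, 3 of 3 libraries, each library left out and the replicate block.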

Additional observations from a re-analysis of the deposited data

Results flagged for a closer look

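The EC over CM fold change of genes near GATA4 peaks differed between the drivers by 0.51 on the log2 scale (mean over genes, then over libraries). All 3 Tie2-Cre libraries lay above 0, at 0.05, 0.13 and 0.01, and all 3 Tnnt2-Cre libraries below 0, at -0.31, -0.77 and -0.28. The value was singled out because the groups of libraries lay on opposite sides of 0 without overlap (exact permutation test, two-sided p = 0.1, the smallest that 3 against 3 can give). The Tie2-Cre values lay close to 0, and in Tie2-Cre replicate 3 genes with distal peaks only had a mean of -0.01. The short second list of each driver had the value farthest from 0.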

How the results depend on the processing

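The median log2 level of genes with 3 or more regions minus 0 regions (4.87) moved to 6.20 without length scaling, 2.90 with a pseudocount of 1, 1.17 with at least 10 counts in EC, 4.49 over protein-coding genes, 4.38 within 20 kb, 5.96 with lists of equal length, 6.73 with 3 of 3 libraries and 5.21 with every gene within 50 kb counted. Leaving out single libraries gave 4.93 to 6.74. Against 1 region (0.76) it moved to 2.78 with lists of equal length and 3.55 with 3 of 3 libraries, stood at 0.08 within 20 kb, and ran between 0.75 and 3.61 with single libraries left out. The promoter minus distal-only difference (2.21) moved to 0.58 with at least 10 counts and 1.12 over protein-coding genes, and to between 1.19 and 2.22 with single libraries left out. Without Rn45s and Mir101c, an alternative added after seeing the data, no level result moved. Both genes are in the same classes, Rn45s at the top of EC level and Mir101c at the bottom. Leaving out both could not move a median, so this alternative is no check of the level results.

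Region numbers depended on the long Tie2-Cre lists. The 14228 regions became 2338 with lists of equal length, 2474 with 3 of 3 libraries and 2495 to 14076 with single libraries left out. The 442 genes with 3 or more regions became 98 within 20 kb, 863 within 100 kb, 10 with lists of equal length, 8 with 3 of 3 libraries, 1861 with every gene counted and 8 to 436 with single libraries left out.

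The share of genes higher in EC differed by 22.4 percentage points between 3 or more and 0 regions, by 28.3 within 20 kb, 41.0 with lists of equal length and 20.2 to 24.3 with single libraries left out. The genes higher (5575) and lower (5972) in EC became 2569 and 2675 in edgeR's test against a 2-fold change, and 5163 to 5437 and 5438 to 5904 with single libraries left out. The gain over 1 region in EC beyond CM (0.76) reversed to -0.16 without Tie2-Cre replicate 3, on 9 genes, within a range of -0.16 to 0.79 over left-out libraries. The cause was not tested. With the replicate block the driver difference was 0.51 (exact p = 0.25), 5248 genes were higher and 5729 lower, and the shares differed by 23.7 points. Same-numbered GATA4 libraries had correlations of 0.03, -0.27 and -0.19, which with so few libraries cannot settle whether they were paired. The driver difference ran from 0.27 to 0.95 and the gain over 0 regions beyond CM from 0.60 to 1.73, all in the same direction.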
